A study of Mus musculus with 2 samples.

Results

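The genes of SR proteins and heterogeneous nuclear ribonucleoproteins (hnRNPs) were described in total RNA of mouse heart. They were chosen by symbol alone: genes with a protein_coding transcript whose symbol begins with Srsf and a digit or with Hnrnp, together with Tra2a, Tra2b, Ptbp2 and Ptbp3. The rule gave 35 genes of 21901 with a protein_coding transcript, namely 11 Srsf, 20 Hnrnp, 2 Tra2 and 2 Ptbp genes. A further 2 genes matched the symbols without a protein_coding transcript and were left out. The 35 genes hold 322 annotated transcripts of 141767 in all, of which 153 are protein_coding, 85 retained_intron, 43 nonsense_mediated_decay and 41 processed_transcript. A member has a median of 8 transcripts, against 4 over all genes with a protein_coding transcript.

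Hearts of 2 female mice of the hybrid strain B6CASTF1/J, each aged 25 days, gave 1 library apiece from 300 ng of RNA. The labels call them biological replicates 1 and 2 of a single group. They carry separate animal numbers but the same donor label, so SDs measure only the spread between these 2 samples. No mutation, treatment or second condition is labelled, and the design holds no comparison but the one between the animals. Each library was quantified in 2 ways, from alignments to the transcriptome and directly from reads. Values are alignment-based unless called read-based.

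SR proteins bind exonic enhancer sequences through RNA recognition motifs and recruit spliceosome components through a domain rich in arginine and serine. Many hnRNPs bind intronic and exonic silencers and coat nascent RNA, so the balance of both families shapes which exons a transcript keeps. Most SR protein genes and several hnRNP genes are known to limit their own output. Their proteins promote inclusion of a poison exon, which carries an early stop codon and exposes the transcript to nonsense-mediated decay (NMD), or promote retention of an intron that keeps the transcript in the nucleus.

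The annotation places such an early stop in an exon of its own in 16 of the 43 NMD transcripts, from 10 genes: Srsf3, Srsf4, Srsf6, Srsf7, Srsf9, Srsf11, Tra2a, Tra2b, Hnrnpl and Hnrnpll. That is 8 of the 11 Srsf and Tra2 genes with an NMD transcript and 2 of the 12 Hnrnp and Ptbp genes. Here an exon of its own is one that overlaps no exon of the gene's protein_coding transcripts with a consensus coding sequence. The other NMD transcripts end either at a stop that such coding transcripts also use (10 transcripts of 5 genes) or at another stop in an exon that coding transcripts overlap (17 transcripts of 10 genes). In all 43 the stop lies more than 50 bases before the last exon junction, the usual condition for NMD. Both the stop and the class come from the annotation, so this is no test of decay in these hearts. The following stretches are shown because they carry the early stop in the members with an NMD share of at least 10% that belong to the first kind. Each runs from the start of the extra exon to its stop codon, which is in capitals, and was read 5′ to 3′ from the GENCODE M21 transcripts on mm10.
Srsf3-201, chr17:29039454-29039487, plus strand: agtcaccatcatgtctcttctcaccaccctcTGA
Srsf6-201, chr2:162932815-162932966, plus strand: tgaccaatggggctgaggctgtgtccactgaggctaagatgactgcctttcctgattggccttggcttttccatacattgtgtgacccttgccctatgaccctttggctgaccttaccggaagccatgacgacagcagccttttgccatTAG
Srsf9-205, chr5:115328347-115328428, plus strand: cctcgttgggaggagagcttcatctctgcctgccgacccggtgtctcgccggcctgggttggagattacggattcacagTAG
Tra2a-202, chr6:49252965-49253108, minus strand: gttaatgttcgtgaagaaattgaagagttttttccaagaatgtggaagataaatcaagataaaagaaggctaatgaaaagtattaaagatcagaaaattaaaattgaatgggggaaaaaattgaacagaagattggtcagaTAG
Tra2b-206, chr16:22259181-22259261, minus strand: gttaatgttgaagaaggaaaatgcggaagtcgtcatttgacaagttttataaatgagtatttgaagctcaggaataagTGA
Hnrnpll-203, chr17:80044976-80045022, minus strand: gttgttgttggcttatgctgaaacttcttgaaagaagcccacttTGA
The stretches of Tra2a and Tra2b, which encode related proteins, open with the same 9 bases. The whole extra exons have 456 bases in Srsf3, 268 in Srsf6, 358 in Srsf9, 306 in Tra2a, 276 in Tra2b and 83 in Hnrnpll.

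The heart expressed nearly the whole family. At 1 TPM (a transcript level scaled for length and depth) or more in both animals, 34 of the 35 genes were detected, against 50.1% of all genes with a protein_coding transcript. The median level of the 35 genes was 26.3 ± 0.926 TPM (SD, n = 2). Over the 34 detected members it was 27.3 ± 0.82 TPM, against 8.83 ± 0.414 TPM over all detected genes. The summed level of the members was 1463.4 TPM in replicate 1 and 1326.5 TPM in replicate 2, or 0.146% and 0.133% of all TPM. In bulk tissue, fewer expressing cells and less RNA per cell cannot be told apart. The defining markers of cardiomyocytes were present, with a median of 3730 TPM over 6 genes.

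The hnRNPs led the order. Hnrnpk, whose protein binds cytosine-rich stretches through KH domains, had 190.3 TPM in replicate 1 and 181.6 TPM in replicate 2. Hnrnpa2b1, whose protein binds AG-rich motifs, had 177.2 and 160.8 TPM. Hnrnpl, whose protein binds CA repeats, followed with 103.7 and 97.2 TPM. These 3 genes were the only members with a mean of 100 TPM or more, and neither pair of neighbours among them overlapped between the animals. Of the other members, 28 averaged 10 to 100 TPM and 3 averaged 1 to 10 TPM.

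The remaining A/B-type proteins cover splice silencers and nascent RNA. Hnrnpa3 had 74.2 and 61.8 TPM, Hnrnpa1, the most studied splicing repressor of the group, 58.8 and 57.4 TPM, Hnrnpab 54.8 and 51.7 TPM, and the intronless Hnrnpa0, with a single annotated transcript, 27.0 and 27.8 TPM. Hnrnpc, whose protein binds uridine tracts, had 56.5 and 49.5 TPM. Hnrnpd, whose protein also binds AU-rich elements of unstable messages, had 31.1 TPM in replicate 1 and 38.2 TPM in replicate 2, and its relative Hnrnpdl 24.4 and 23.4 TPM. The sign of the difference for Hnrnpd was the opposite of that for most members, since 31 of the 34 detected members had the higher TPM in replicate 1. Over all detected genes the median TPM was also higher in replicate 1, at 9.12 TPM against 8.54 TPM in replicate 2. The share of all genes with the higher TPM in replicate 1 is not given, so the 31 of 34 has no like background. On scaled counts 24 of the 34 members were higher in replicate 1, against 47.0% of genes.

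The F/H group binds guanine tracts. Hnrnpf had 82.1 and 74.8 TPM, Hnrnph1 49.1 and 38.0 TPM, Hnrnph2 28.8 and 25.7 TPM, and Hnrnph3 12.4 and 11.4 TPM. The U group binds RNA and chromatin, and Hnrnpu is known to be needed for splicing in mouse heart. Hnrnpu had 70.8 and 61.2 TPM, Hnrnpul1 29.95 and 29.62 TPM, and Hnrnpul2 19.0 and 17.0 TPM. Hnrnpm, whose protein binds GU-rich sequences, had 40.8 and 35.1 TPM, and Hnrnpr 17.3 and 16.1 TPM. The lower end held paralogs known from other tissues. Hnrnpll, a splicing regulator of lymphocytes, had 8.59 and 7.74 TPM. Ptbp2, the polypyrimidine tract protein of neurons, had 8.01 and 7.91 TPM. Ptbp3 had 14.2 and 9.0 TPM.

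SR protein genes were lower as a group, with a median of 16.6 ± 3.41 TPM over the 12 detected Srsf and Tra2 genes and 36.3 ± 0.428 TPM over the 22 Hnrnp and Ptbp genes. Srsf5 was the highest in mean, with 42.0 and 45.2 TPM. Srsf1, whose loss in mouse heart is known to disturb the splicing of calcium-handling genes, had 44.7 and 34.7 TPM. Srsf2 had 39.5 and 35.6 TPM, a range that overlapped that of Srsf1. Among the other shuttling and nuclear SR proteins, Srsf3 had 26.5 and 21.2 TPM, Srsf6 24.5 and 22.1 TPM, Srsf7 16.1 and 13.2 TPM, and Srsf4 14.8 and 13.5 TPM. Srsf10, whose protein turns into a general repressor when dephosphorylated, had 18.4 and 14.8 TPM, and Srsf11 19.6 and 13.1 TPM. The GAA-binding regulators Tra2b and Tra2a had 17.0 and 13.6 TPM, and 13.2 and 9.54 TPM. Srsf9 was the lowest detected member, with 7.91 and 6.86 TPM. Srsf12, whose protein opposes other SR proteins, had 1 count in replicate 1 and 0 in replicate 2, which gives no fold.

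**Figure D1:**
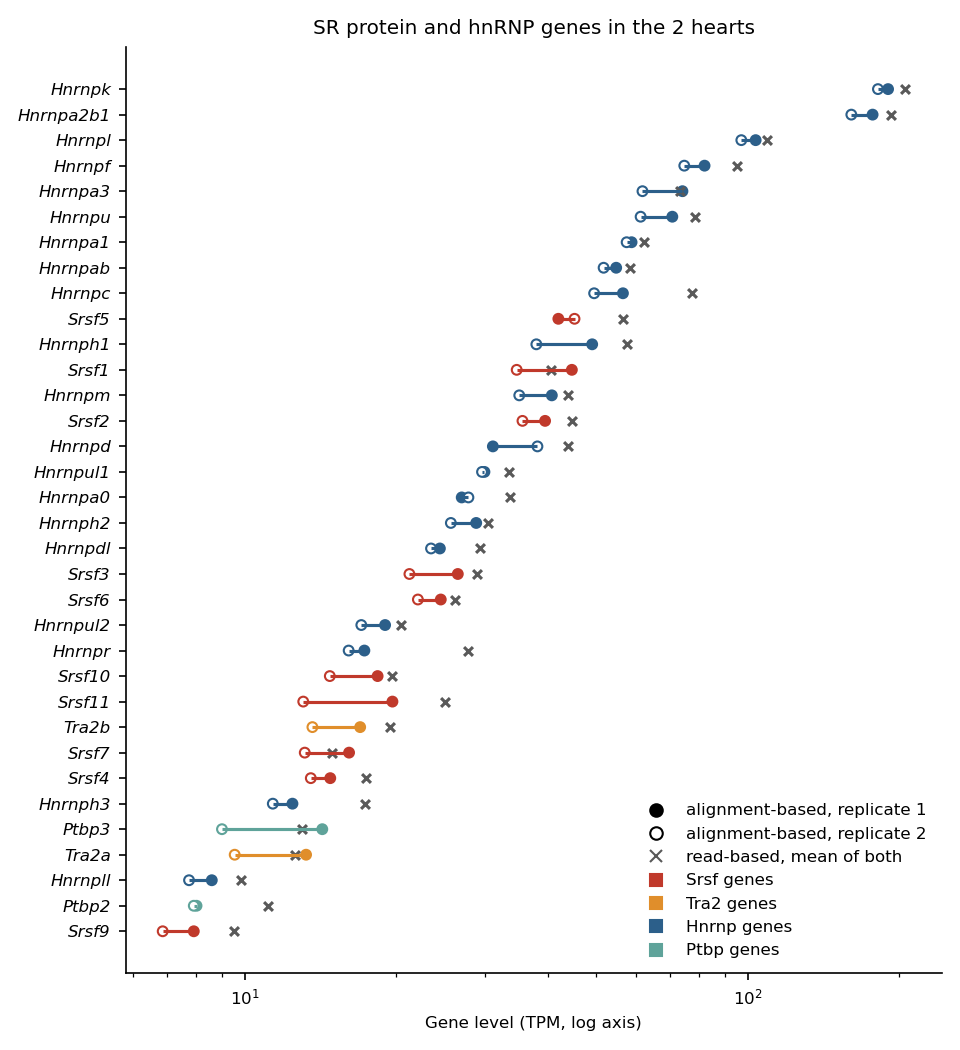
Level of the 34 detected members in TPM on a log axis, ordered by mean; filled circles are replicate 1, open circles replicate 2 (alignment-based) and crosses the read-based mean of both. Hnrnp genes (blue) fill the first 9 places, from Hnrnpk at 190.3 and 181.6 TPM, and the cross lies to the right of the alignment-based mean for all 34. Over all detected genes the median level was higher by reads too.

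The ranges of neighbours in this order overlapped between the animals in 20 of 33 pairs, so the order is firm only in steps. The ranges did not overlap for any of the first 4 pairs, from Hnrnpk down to Hnrnpa3. The read-based mean was higher than the alignment-based one for all 34 detected members. The median over all detected genes was also higher by reads, at 10.4 TPM against 8.83 TPM by alignment. By reads Hnrnpk had 190.2 and 220.9 TPM and Hnrnpa2b1 202.7 and 183.2 TPM, so their ranges overlapped there. The gap between methods reached at least 0.5 on the log2 scale (alignment over read) for 4 of the 34 members: Hnrnpr at -0.73, Srsf11 at -0.61, Hnrnpc at -0.55 and Hnrnph3 at -0.54. Across the 34 members log2 TPM from both methods had a Pearson r of 0.991, as a description, since both start from the same reads.

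Some levels are uncertain because other genes carry the same sequence. All 31-base words of the processed pseudogene Gm10052 occur in Hnrnpa1; it was assigned 11.68 TPM in replicate 1 and 11.52 TPM in replicate 2. All words of Gm5641 occur in Hnrnpa3, with 7.83 and 9.54 TPM by alignment and 0.00 TPM by reads in both animals. Gm7964, which shares 78.7% of its words with Hnrnpk, had 8.35 and 7.81 TPM. For Srsf3 there were 2 such genes with a sum of 10.13 and 11.16 TPM, and for Tra2b 1 with 5.50 and 3.72 TPM. Hnrnpm overlaps March2 on the same strand at its 5′ end, and part of its first exons cannot be told from that gene.

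Part of the RNA of these genes was assigned to transcripts outside the protein_coding class. Over the 34 detected members the median share of protein_coding transcripts in a gene's TPM was 74.6 ± 2.26%, against 94.1 ± 0.922% over all 10976 detected genes. That background includes genes with coding transcripts only, whose share is 100% by annotation. A retained_intron transcript is annotated for 26 of the 35 members, against 9120 of 21901 genes, and an NMD transcript for 23, against 4491. No share over genes with a like number of transcripts is given. Summed over the members, protein_coding transcripts held 1051 TPM in replicate 1 and 994.1 TPM in replicate 2, NMD transcripts 167.7 and 154.7 TPM, retained_intron transcripts 180.2 and 136.0 TPM, and processed_transcript entries 64.85 and 41.84 TPM. At 1 TPM or more in both animals there were 87 of the 153 coding, 22 of the 85 retained_intron, 19 of the 43 NMD and 12 of the 41 processed_transcript entries. Among the members 7 have neither a retained_intron nor an NMD transcript: Hnrnpa0, Hnrnpab, Hnrnpf, Hnrnph1, Hnrnph2, Srsf10 and Srsf12. The classes are the annotation's labels; whether a transcript was degraded or kept in the nucleus was not measured.

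**Figure D2:**
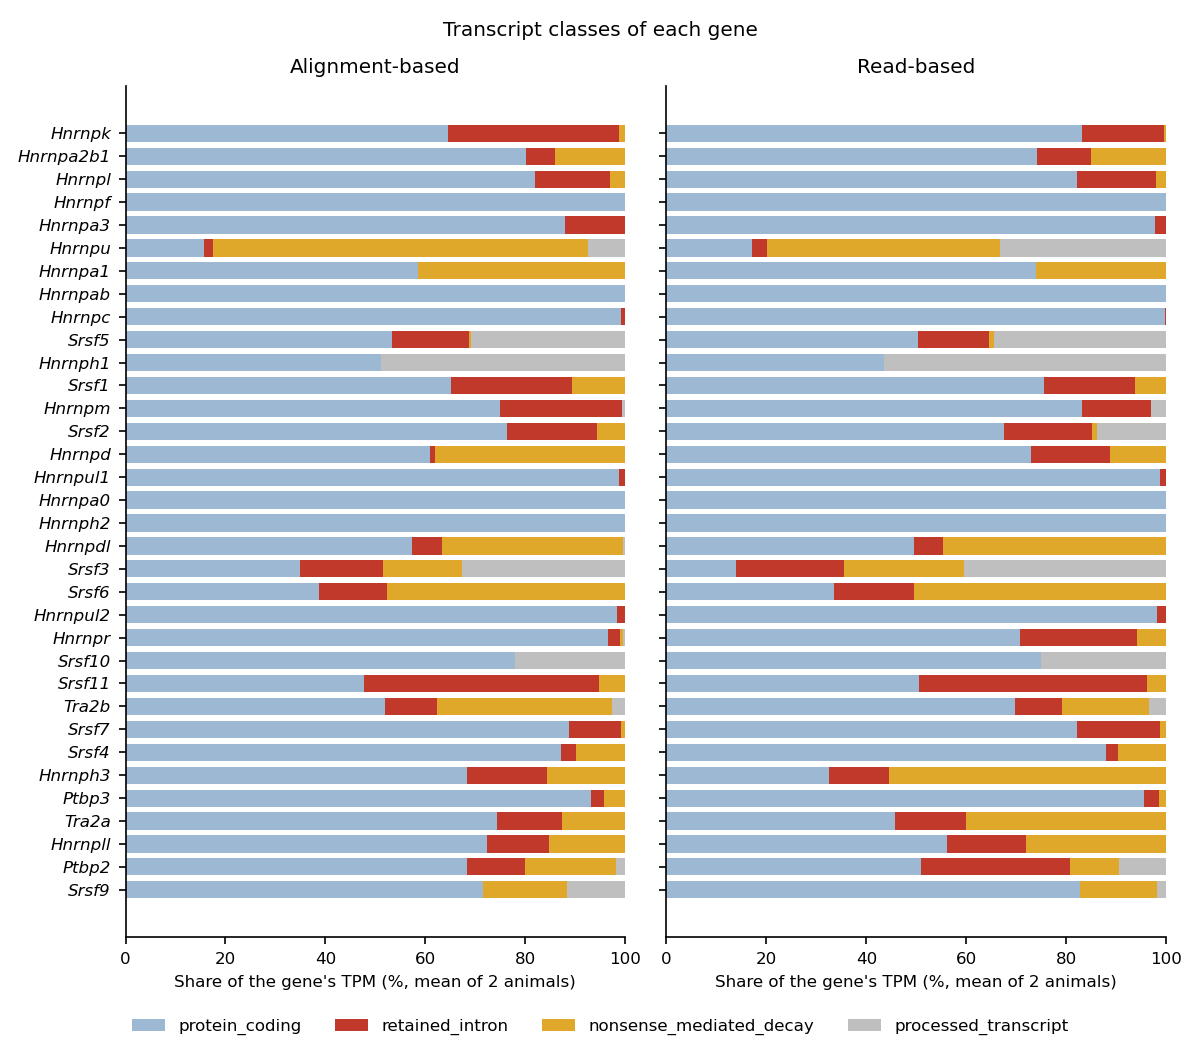
Share of each detected member's TPM in 4 transcript classes (%, mean of 2 animals), alignment-based on the left and read-based on the right. Yellow NMD bars are widest for Hnrnpu and Srsf6 on the left and for Hnrnph3 and Srsf6 on the right, red retained_intron bars are widest for Srsf11 in both panels, and fully blue bars mark genes with coding transcripts only.

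The NMD share was high in many members. Of the 23 detected members with an annotated NMD transcript, 13 had 10% or more of their TPM in that class in both animals, against 27.0% of the 3200 detected genes with an NMD transcript. By reads it was 11 of 23, against 31.2%. The median NMD share was 12.6 ± 0.246% over the members and 3.29 ± 0.316% over all such genes (SD, n = 2). As a share of expected counts, a choice made after the data were seen, it was 12 of 23, against 20.1%. Among genes at 10 TPM or more in both animals, a background chosen after the data were seen, the counts were 9 of 18 members against 25.4% of 1491 genes. Just inside the threshold lay Tra2a, with 13.6% in replicate 1 and 11.6% in replicate 2, and Srsf9, with 11.6% and 21.9%. Just outside lay Srsf4, with 10.1% and 9.53%, and Srsf1, with 12.1% and 9.10%.

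Hnrnpu (chr1:178321108-178337797, minus strand) had the highest NMD share, 73.8% in replicate 1 and 76.1% in replicate 2. Its leading transcript was Hnrnpu-206, of 2844 bases and with a stop 183 bases before the last junction, at 40.78 and 37.41 TPM, or 57.6% and 61.1% of the gene. By reads Hnrnpu-206 held 45.2% and 46.9%. The only protein_coding transcript of Hnrnpu made up 15.5% and 16.0% of its TPM. On the scale of expected counts, which is not corrected for length, that transcript made up 40.0% and 39.9%. The NMD share of Hnrnpu on that scale was 55.3% and 56.7%. A further NMD entry of 351 bases, Hnrnpu-209, held 16.3% and 15.0% by alignment but 0.458% and 0.118% by reads. The read-based share of the NMD class was lower, at 45.7% and 47.4%, and Hnrnpu-203, a processed_transcript, took 30.1% and 31.04% there. The long NMD transcript thus led Hnrnpu in both animals and by both methods.

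Srsf6 (chr2:162931528-162937121, plus strand) had a poison exon transcript with close values in both animals and by both methods. Srsf6-201, with the 268-base exon shown above, had 11.65 TPM in replicate 1 and 10.58 TPM in replicate 2. It held 47.5% and 47.9% of the gene by alignment, and 48.7% and 52.0% by reads. All 4 values exceed the coding share of Srsf6, which was 36.9% and 40.5% by alignment and 32.0% and 35.1% by reads. On the scale of expected counts, which is not corrected for length, the NMD share of Srsf6 was 30.5% in both animals, below its coding share of 51.7% and 56.4%.

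The other poison exons differed more between methods or animals. Tra2b-206 held 20.1% of its gene in replicate 1 and 46.5% in replicate 2 by alignment, at 3.41 and 6.33 TPM. By reads it held 15.9% and 19.1%, a narrower gap between the animals. Tra2a-202 held 13.6% and 11.6% by alignment and 45.1% and 35.0% by reads. Srsf3-201, whose exon Srsf3 protein is known to include in its own message, held 14.4% and 17.4% by alignment and 25.0% and 23.1% by reads. Srsf9-205 held 11.7% and 21.9% by alignment, and 15.6% and 15.4% by reads. Hnrnpll-203 held 17.0% and 13.7% by alignment, and 29.2% and 27.0% by reads. Lower shares were held by Srsf7-203, with 0.35% and 1.45%, and by Hnrnpl-213, with 2.03% and 3.94%. Srsf4-204 held 6.03% and 5.59% by alignment and 8.21% and 7.76% by reads. Srsf4-203 held 4.13% and 3.93% by alignment, and Srsf11-206 held 2.05% and 3.73%.

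In the A/B-type and D-type hnRNP genes the NMD transcripts mostly end at the normal stop codon and splice after it. Hnrnpa1-203, with its stop 90 bases before the last junction, held 41.4% of Hnrnpa1 in replicate 1 and 33.8% in replicate 2, and 26.7% and 18.3% by reads. Hnrnpd-208 held 29.0% and 24.8%, but 14.2% and 3.82% by reads. In Hnrnpa2b1 the methods chose different NMD entries with the same stop. Hnrnpa2b1-209 held 12.4% and 15.8% by alignment and 0.00% by reads, while Hnrnpa2b1-207 held 0.00% by alignment and 11.3% and 18.6% by reads. Hnrnpdl-205, whose stop lies in an exon that coding transcripts overlap, held 34.3% and 28.3%, and 36.8% and 31.4% by reads. Hnrnph3-204 showed a large gap between methods, with 18.6% and 12.7% by alignment against 57.5% and 53.3% by reads. In Ptbp2, Ptbp2-206 held 10.6% and 15.3% by alignment, and 6.16% and 0.00% by reads.

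**Figure D3:**
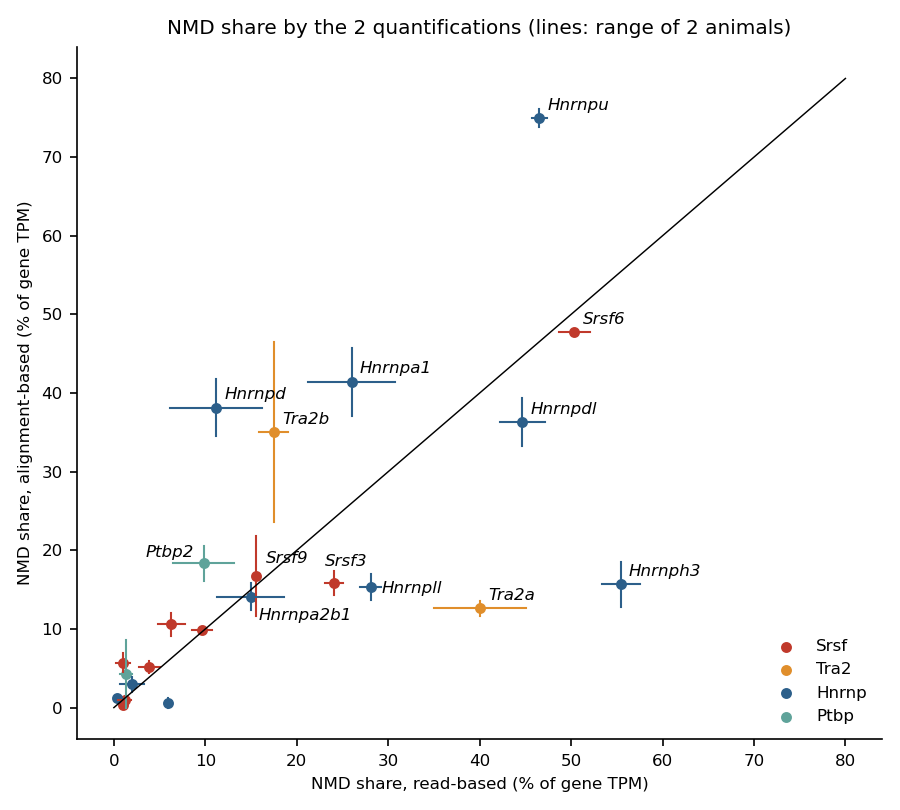
NMD share of the 23 members with an NMD transcript (% of gene TPM), alignment-based on the vertical axis and read-based on the horizontal axis, with lines for the range of the 2 animals and the line of equal values. Srsf6 lies next to that line, Hnrnpu, Hnrnpd and Tra2b lie above it, and Hnrnph3 and Tra2a lie below it.

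Across the 23 members the 2 methods had a Pearson r of 0.673 for the mean NMD share, and the 2 animals an r of 0.939 by alignment. For the retained-intron share of 26 members the values were 0.706 between methods and 0.984 between animals. These are descriptions across genes, and the methods share their libraries. For both classes r was lower between methods than between animals.

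Retained-intron transcripts were assigned a moderate share. Of the 26 detected members with such a transcript, 4 had a share of 20% or more in both animals, against 14.0% of 6629 genes: Srsf11, Hnrnpk, Srsf1 and Hnrnpm. By reads it was 3 of 26, against 15.3%: Srsf11, Ptbp2 and Hnrnpr. Srsf11 was the only member on both lists. The 4 of 26 lay near the background, and the 3 of 26 by reads were below it as a share. As a share of expected counts, also chosen after the data were seen, it was 4 of 26, against 6.14%: Srsf11 stayed, and Srsf5, Srsf3 and Tra2a entered. On that scale Srsf1 had 8.87% in replicate 1 and 6.68% in replicate 2, Hnrnpm 8.15% and 7.81%, and Hnrnpk 16.4% and 15.5%. The median share was 11.7 ± 1.24% over the members and 5.02 ± 1.01% over all such genes, with 14.2 ± 3.9% in the 10 Srsf and Tra2 genes and 5.78 ± 2.3% in the 16 Hnrnp and Ptbp genes. At 10 TPM or more it was 4 of 22 members with a high share, against 14.1% of 3171 genes. Just inside the threshold was Srsf1, with 26.6% in replicate 1 and 21.8% in replicate 2. Just outside were Srsf2, with 19.6% and 16.6%, and Srsf5, with 20.3% and 10.8%. Below 5% in both animals were 8 members. No like share over all such genes is given, but their median of 5.02% lies near that limit.

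Srsf11 (chr3:158010473-158036639, minus strand), whose protein acts at the 3′ splice site, had 49.6% of its TPM in retained_intron transcripts in replicate 1 and 44.4% in replicate 2, and 52.0% and 39.1% by reads. The share is spread over 11 annotated transcripts, of which the highest, Srsf11-208, held 10.9% and 10.2%. By reads the highest was Srsf11-211, an entry of 521 bases, with 26.6% and 13.2%, against 8.85% and 1.49% by alignment. Of the 11 entries 0 contain a whole intron of a coding transcript. The coding transcripts of Srsf11 held 46.0% and 49.6%, and 45.3% and 55.9% by reads.

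In Srsf1 and Srsf2 the leading retained_intron transcript keeps a whole intron of the coding transcripts. Srsf1-203 holds the 378-base intron at chr11:88049599-88049976 and made up 20.6% of Srsf1 in replicate 1 and 12.7% in replicate 2, at 9.22 and 4.40 TPM. By reads it made up 13.5% and 6.42%. Srsf2-203 holds a 1059-base intron and made up 19.6% and 16.6%, at 7.76 and 5.92 TPM, and 19.2% and 16.0% by reads. The 4 values of Srsf2-203 lay between 16.0% and 19.6%. Srsf5-212 made up 16.8% and 8.62%, Srsf6-204 15.6% and 11.6%, Srsf3-204 11.6% and 6.22%, and Tra2a-203 12.4% and 8.42%. In each of these 4 genes, too, the share was the higher one in replicate 1.

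The high values of Hnrnpk and Hnrnpm rest on short entries. Hnrnpk-215, of 522 bases, held 21.45% of Hnrnpk in replicate 1 and 21.7% in replicate 2, at 40.82 and 39.35 TPM. By reads it held 0.000827% and 10.7%. The retained-intron share of Hnrnpk was 34.9% and 33.5% by alignment, and 12.1% and 21.01% by reads. Hnrnpm-213, of 591 bases, held 22.5% and 20.9%, and 12.2% and 9.66% by reads. The read-based calls have the same feature: Hnrnpr-208, of 473 bases, held 25.9% and 19.97% by reads but 1.62% and 0.00% by alignment, and Ptbp2-211, of 491 bases, held 17.1% and 32.6% by reads but 6.38% and 3.98% by alignment. TPM divides counts by transcript length, so at equal counts a shorter entry has the larger TPM. The members' retained_intron entries have a median length of 874 bases, against 1898 for coding, 980 for NMD and 677 for processed_transcript entries. The leading coding entry of Hnrnpk by alignment, Hnrnpk-223, is also short, with 485 bases. The part of length in these shares was not tested. Of the 85 retained_intron entries, 55 contain no whole intron of a coding transcript, 22 contain 1, with a median of 285 bases, and 8 contain 2 or more. The 55 entries without a whole intron held 109.68 TPM in replicate 1 and 89.61 TPM in replicate 2, the 22 held 56.44 and 38.67 TPM, and the 8 held 14.09 and 7.67 TPM. Hnrnpk-215 is one of the 55, and the other 54 held 68.86 and 50.26 TPM.

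The retained-intron share was higher in replicate 1 in 25 of 26 members, Srsf7 being the exception with 9.68% in replicate 1 and 10.9% in replicate 2. Over all genes it was higher in replicate 1 in 65.2%, and at 10 TPM or more the values were 21 of 22 members and 68.9% of genes. By reads it was 20 of 26 members, against 62.9%. The summed retained_intron TPM of the members was 1.33 times as high in replicate 1 as in replicate 2, against 1.11 times over all genes; by reads the members' ratio was 1.07. The NMD share was higher in replicate 1 in 12 of 23 members, against 42.2% of genes, and the members' summed NMD TPM had a ratio of 1.08. Nuclear RNA moved in the same direction. Malat1, a long noncoding RNA of nuclear speckles, had 1740 TPM in replicate 1 and 1070 TPM in replicate 2. Neat1, the scaffold of paraspeckles, had 73.2 and 36.2 TPM, and Xist, which coats the inactive X chromosome, had 24.3 and 17.8 TPM. Their summed level was 1837 and 1124 TPM, all 3 were higher in replicate 1, and their part in the retained-intron difference was not tested.

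**Figure D4:**
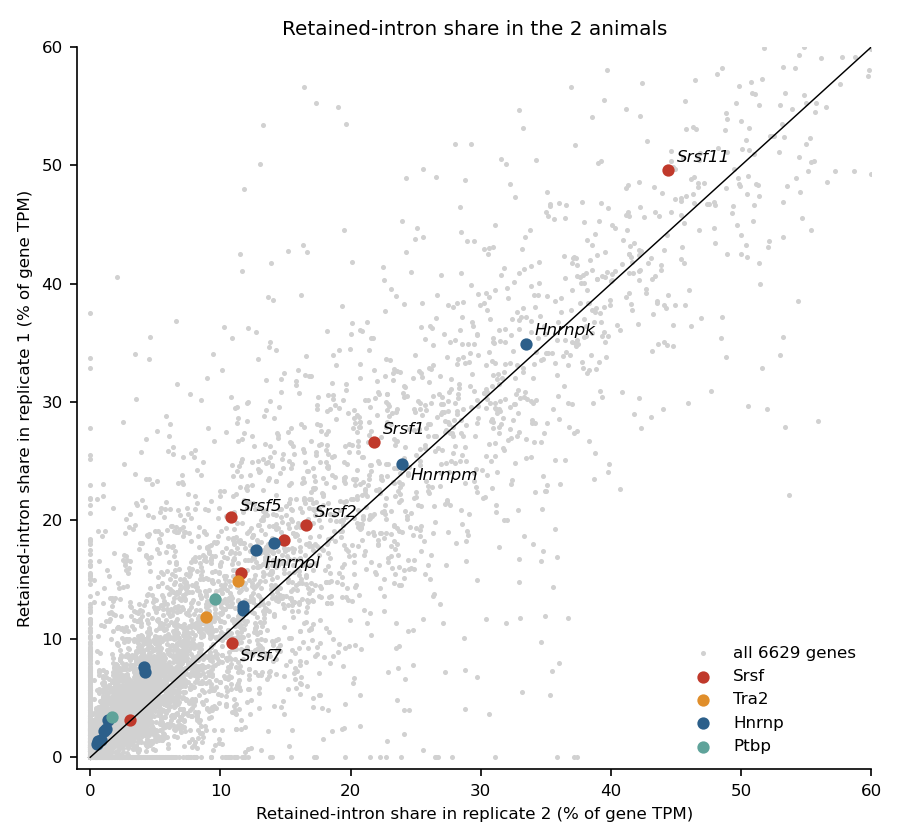
Retained-intron share in replicate 1 (vertical, % of gene TPM) and replicate 2 (horizontal) for the 26 members, coloured by family, over all 6629 genes with a retained_intron transcript in grey; the axes end at 60% and the line marks equal values. Of the 26 members 25 lie above the line, with Srsf11 at 49.6% and 44.4% and Srsf7 below it.

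The transcript with the highest level was not protein_coding in 3 of the 33 detected members with more than 1 transcript, against 6.92% of 10070 genes: Hnrnpu, Srsf6 and Srsf5. Hnrnpu and Srsf6 were led by the NMD transcripts described above. Srsf5 was led, in the mean and in replicate 1, by Srsf5-206, a processed_transcript at 32.8% and 21.3%; in replicate 2 the coding Srsf5-205 was higher, at 19.5% and 28.1%. By reads it was 6 of 33, against 9.23%: Hnrnpu, Srsf6, Hnrnph3, Tra2a, Srsf3 and Ptbp2. Hnrnpu and Srsf6 were the members on both lists. The leading transcript was the same in both animals in 27 of 33 members by alignment, against 89.5% of genes, and in 27 of 33 by reads, against 86.4%. Both methods named the same leading transcript in 16 of 33 members, against 76.2% of genes. With many transcripts a gene has more choices, so a further background was taken after the data were seen: among genes with 5 or more transcripts it was 12 of 29 members and 70.2% of genes.

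The 16 members led by the same transcript in both methods included the coding transcripts Srsf2-201, with 63.6% of Srsf2 in replicate 1 and 71.4% in replicate 2, Srsf4-202, with 86.7% and 87.5% of Srsf4, Srsf10-204, with 31.1% and 35.0%, Srsf11-202, with 30.8% and 38.4%, and Hnrnpul2-201, with 97.8% and 99.0%. Hnrnpm-201 held 40.4% and 46.6%, and Hnrnpc-207 35.6% and 34.6%. For the other 17 the methods disagreed, often between coding transcripts. Hnrnpl was led by Hnrnpl-202 by alignment and Hnrnpl-201 by reads, Hnrnph1 by Hnrnph1-201 and Hnrnph1-203, and Srsf1 by Srsf1-202, of 1209 bases, and Srsf1-201, of 2948 bases. Hnrnpk was led by Hnrnpk-223, a coding entry of 485 bases, at 36.1% and 34.1% by alignment, and by a coding entry of 900 bases by reads. In the gene tables the levels of Hnrnpl, Srsf1 and Hnrnpk differed by less than 0.2 on the log2 scale between methods, while that of Hnrnph1 differed by -0.40 (alignment over read).

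Few members passed the threshold for a difference in abundance between the animals, but most had the higher scaled count in replicate 1. Ratios were taken of expected counts scaled with TMM factors, replicate 1 over replicate 2, with exact 95% intervals that cover counting error only. At 0.32 or more on the log2 scale, 2 of 34 members were higher in replicate 1, against 11.0% of 13526 genes, and 0 of 34 were lower, against 7.36%. That background keeps every gene with a mean count of at least 10. It includes genes with fewer counts than any detected member, of which Srsf9 had the fewest, with 281 and 268. No share over genes at like counts is given. Tra2a had 902 counts in replicate 1 and 644 in replicate 2, a ratio of 1.36 (interval 1.22 to 1.503), and 1.37 by reads. Srsf11 had 1200 and 920 counts, a ratio of 1.26 (1.16 to 1.38), but 1.20 by reads. At any size, 24 of 34 members were higher in replicate 1, against 47.0% of genes; the median ratio was 1.03 over the members and 0.991 over all genes. It was 1.13 over the 12 Srsf and Tra2 genes and 1.03 over the 22 Hnrnp and Ptbp genes. The lowest was Hnrnpd, with 1261 and 1486 counts and a ratio of 0.822 (0.762 to 0.886), followed by Srsf5, with 2025.5 and 2226.7 counts and a ratio of 0.881 (0.829 to 0.936).

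For some members the ratio of TPM differed from that of counts. Ptbp3 had a TPM ratio of 1.58 and a count ratio of 1.19 (1.12 to 1.27), and Srsf11 1.505 and 1.26. TPM divides each transcript's counts by its own length, which the count ratio does not. The 2 ratios also differ in scaling, since TPM was not scaled with TMM factors. Hnrnpa0, with a single transcript, had a TPM ratio of 0.970 and a count ratio of 0.909. Over 15839 genes the libraries varied by more than counting error, with a chi-square 13.6 times its degrees of freedom. Smooth muscle markers had a sum of 180.4 TPM in replicate 1 and 130.6 TPM in replicate 2. Fibroblast markers had 437.9 and 348.4 TPM, with a median count ratio of 1.18 over 4 genes. Cardiomyocyte markers had 25770 and 26770 TPM, with a median count ratio of 0.912 over 6 genes. Liver markers had 1.37 and 25.53 TPM, and 6 of 6 were higher in replicate 2. Their part in the members' ratios was not tested.

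**Figure D5:**
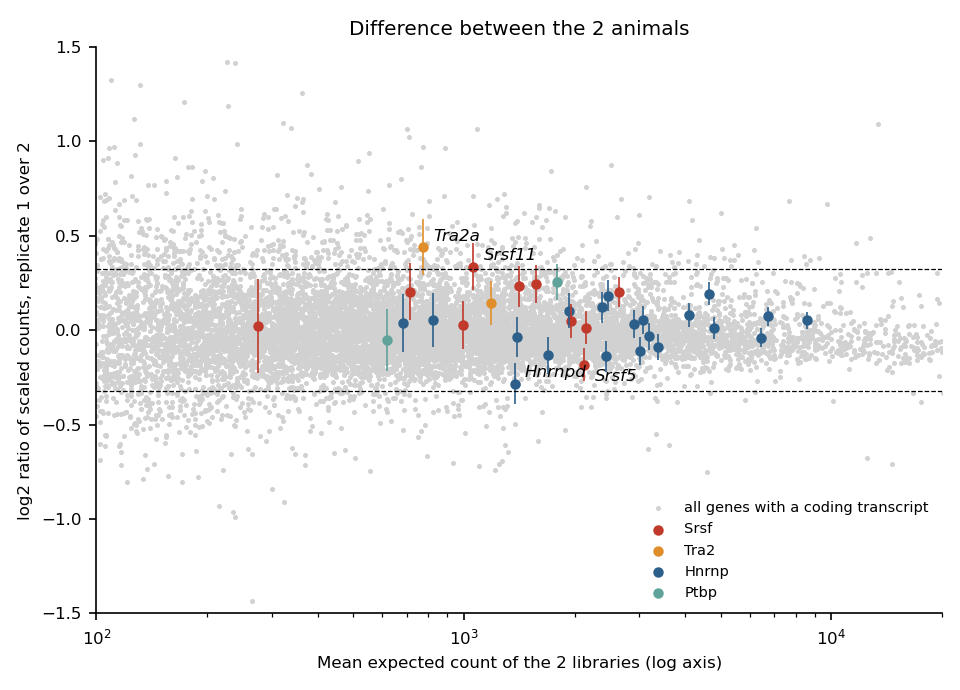
Log2 ratio of TMM-scaled counts, replicate 1 over replicate 2, against the mean expected count (log axis) for the 34 detected members with exact 95% counting intervals, over all genes with a protein_coding transcript in grey; dashed lines mark 0.32 in either direction, and the axes are cropped, leaving out some grey points. Tra2a and Srsf11 lie above the upper dashed line and Hnrnpd is the lowest member.

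Genes that act with the SR proteins and hnRNPs were expressed as well. Of 10 kinases and import factors of SR proteins, 10 were detected, at a median of 13.4 ± 0.803 TPM. The highest were Dyrk1a, with 27.5 TPM in replicate 1 and 27.3 TPM in replicate 2, Clk1, with 23.03 and 14.98 TPM, and Tnpo3, the importin of SR proteins, with 16.9 and 15.8 TPM. Clk1 was the 1 gene of the 10 past that threshold, with a count ratio of 1.63 (1.5 to 1.79). Its retained-intron share was 27.9% and 36.8%. A high retained-intron share was found in 3 of the 10 kinases and import factors, against 14.0% of genes, and a high NMD share in 5 of 8, against 27.0%.

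Of 18 SR-related proteins and coactivators 17 were detected, led by Rbm39 with 63.2 and 52.5 TPM, Srrm2 with 62.3 and 53.4 TPM, and Son with 57.4 and 48.7 TPM; 4 of 15 had a high retained-intron share, against 14.0% of genes, and 5 of 13 a high NMD share, against 27.0%. Of these 17, 2 were past 0.32 on the log2 scale as higher in replicate 1, against 11.0% of genes, and 1 as lower, against 7.36%. The 14 NMD factors were all detected, at a median of 10.4 ± 1.48 TPM, with Eif4a3 at 26.0 and 27.9 TPM, the helicase Upf1 at 17.8 and 16.6 TPM, and Magoh at 16.2 and 16.3 TPM. Of these 14, 0 of 3 with an NMD transcript had a high NMD share by alignment, against 27.0% of genes. By reads Smg1 was past 10%, with 16.8% in replicate 1 and 23.3% in replicate 2, while Smg5 and Smg6 stayed below. Past 0.32 on the log2 scale, 1 of the 14 was higher in replicate 1, against 11.0% of genes, and 0 were lower, against 7.36%. Other hnRNP-type proteins, 16 of 16 detected, had a median of 28.9 ± 4.85 TPM, with Pcbp2 at 193.9 and 174.3 TPM and Pcbp1 at 64.0 and 59.9 TPM. All 13 core spliceosome genes were detected, at 27.3 ± 0.148 TPM. Of these, 0 of 13 were past 0.32, against 11.0% of genes as higher in replicate 1 and 7.36% as lower. The highest were Prpf19, with 88.2 TPM in replicate 1 and 89.0 TPM in replicate 2, Snrpb, with 56.0 and 56.8 TPM, and Snrnp70, with 42.3 and 31.1 TPM. The 8 genes of the minor spliceosome, all detected, had a median of 4.02 ± 0.513 TPM. They were led by Zcrb1 with 32.96 and 34.27 TPM, Zrsr1 with 5.2 and 5.1 TPM, and Pdcd7 with 4.83 and 4.75 TPM. Of these 8, 2 were past 0.32 as higher in replicate 1, against 11.0% of genes, and 0 as lower, against 7.36%.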

How the data were processed

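Total RNA depleted of ribosomal RNA was measured in 2 libraries of mouse heart, with ERCC spike-ins. Expected counts and estimated counts, deposited by the authors, are reads assigned to each gene or transcript and are not normalized, per the file headers. TPM in the deposited tables was scaled over all entries, spike-ins included. The deposited percent column gives each transcript's part of its gene. The score columns deposited with the alignment-based tables bound TPM in a credibility interval whose level is not given. Both quantifications used mm10 and GENCODE M21, per the deposited listings; which tools and strand setting made them is not given in the sources used here.

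Libraries held 43190646 and 42954475 expected counts in replicates 1 and 2. Members, lists and tests were chosen with earlier results of these data known. Symbols, identifiers and classes came from the read-based transcript names. Every member was named with its level in both animals, with its leading transcript where the methods were compared and its highest retained_intron or NMD transcript where that share was high; of each list the 3 highest genes were named, except 1 gene that is not reported here. A class share is the summed TPM of the class over that of the gene's transcripts. Counts were scaled with TMM in edgeR 4.0.16 (R 4.3.3), keeping genes whose mean count reached 10. The intervals are Clopper-Pearson at 95% and cover counting error only. The ratio step was tested on simulated data. No p was computed, since each animal gave 1 library and there was 1 group. Alternatives were read-based values, shares of counts, other thresholds, spike-in totals, DESeq2 1.42.0 size factors, posterior mean TPM and each animal left out. Everything else ran in Python 3.11.15 with matplotlib 3.10.9, pandas 2.3.3, scipy 1.17.1 and numpy 2.4.6. The parental alleles of the hybrid were not analysed here.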

Additional observations from a re-analysis of the deposited data

How the results depend on the processing

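The median level of the 35 genes, 26.3 TPM, became 30.4 TPM by reads, 27.3 TPM over detected members and 67.6 TPM when rescaled to nuclear protein-coding genes. The median retained-intron share of 11.7% became 13.6% by reads and 7.52% of counts. The median NMD share of 12.6% became 10.8% by reads, 11.9% of counts and 11.7% at 10 TPM or more. Members with a high retained-intron share numbered 13 at a threshold of 10% and 2 at 30%, and those with a high NMD share 6 at 20%. As shares of counts, a setting added after the data were seen, they numbered 4 and 12, and 3 of the 4 with a high retained-intron share were other genes than by TPM. Members differing between the animals numbered 5 with spike-in totals, 13 at 1.1-fold, 0 at 1.5-fold and 1 by reads. For these other thresholds and scalings no share over all genes is given, so the counts have no background. Spike-in totals moved every log2 ratio by 0.11 towards replicate 1 and brought Srsf3, Srsf10 and Ptbp3 past the threshold of 0.32 on the log2 scale; reads left Tra2a alone. Single members moved more: by reads, 17 of 23 NMD shares and 15 of 26 retained-intron shares moved by more than the SD of the animals. With each animal left out in turn, members with a high retained-intron share numbered 4 to 5 and those with a high NMD share 13 to 15. No paired analysis was possible because both samples belong to 1 group. With 1 library an animal and no condition, spread between animals rests on 2 values, and short or overlapping transcripts limit every class share.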

Other observations

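Entries of the processed_transcript class, which have no coding sequence in the annotation, held 64.85 TPM of the members in replicate 1 and 41.84 TPM in replicate 2, or 1.55 times as much. By reads they held 109.5 and 98.26 TPM, with a ratio of 1.11. Hnrnph1 was the member with the largest such share, 55.9% in replicate 1 and 41.7% in replicate 2 by alignment, and 57.4% and 55.5% by reads. In Srsf3 the 2 methods assigned the class to different entries: Srsf3-209, of 518 bases, held 34.2% and 28.1% by alignment and 6.45% and 8.69% by reads, while Srsf3-207, of 594 bases, held 0.00% by alignment and 30.5% and 35.1% by reads. The 1 coding transcript of Srsf3 held 33.0% and 36.7% by alignment, and 12.9% and 15.0% by reads.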
